A study of Mus musculus with 2 samples.

Results

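Genes of protein entry into the endoplasmic reticulum (ER) and of vesicle transport between the ER and the Golgi apparatus were compared between mouse B cells that received a retrovirus encoding miR-181b, a microRNA, and B cells given the control virus. The genes were those whose name in the scanner files is one of 49 listed names: the signal recognition particle and its receptor, the Sec61 translocon, signal peptidase, the COPII and COPI vesicle coats, and cargo and retrieval receptors. Of the 49 names, 43 were found, and all 43 were measured, meaning that each RNA gave a signal well above background on each array, among 17713 measured genes in all. The other 6 (Sec11a, Sec11c, Sec13, Sec16a, Sec31a and Sec62) carried older names on the array and are given apart from the counts.

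The cells were B lymphocytes purified from the spleens of C57BL/6 mice by depletion of CD43-positive cells, and cultured with interleukin-4 at 10 ng/ml and lipopolysaccharide at 25 µg/ml, a combination that activates B cells and drives part of them towards antibody secretion. One culture received the miR181b-GFP vector and the other the control-GFP vector, each for 20 h with polybrene, a polymer that aids transduction (8 µg/ml), and cells positive for green fluorescent protein were sorted on day 2. RNA integrity numbers were 9.7 to 9.8. The age of the mice and the promoter of the vectors are not given in the sources used here. There was 1 RNA sample per vector, and both RNAs were hybridised together on 2 Agilent whole-genome arrays with the dyes exchanged, so the arrays are technical repeats of 1 RNA pair. No test between conditions was therefore possible and no p-value is given. All values are log2 ratios of miR-181b over control, as the mean of both arrays ± the gap from the mean to each array, which is technical spread only. A gene was counted as 1.5-fold higher or lower when its mean reached 1.5-fold (0.58 on the log2 scale) with the same sign on both arrays.

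Proteins that are to be secreted or placed in a membrane carry a signal sequence, which the signal recognition particle binds as it leaves the ribosome. The particle docks at its receptor on the ER, the chain passes through the Sec61 channel, and signal peptidase removes the signal. COPII-coated vesicles then carry folded cargo to the Golgi, and COPI-coated vesicles return escaped ER proteins and receptors. B cells enlarge this machinery as they become antibody-secreting cells, under control of the transcription factor XBP1.

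The microRNA itself is shown because the study expressed it. Mature mouse miR-181b, in RefSeq (GRCm38.p6) at chr1:137966650-137966673 and in a further copy at chr2:38853845-38853868, both on the + strand, is printed with its seed (bases 2 to 8) in capitals.
miR-181b-5p: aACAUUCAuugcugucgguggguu
The reverse complement of the seed, TGAATGT, occurred in 0 of the 89 probes of the 43 genes and in 393 of all 41174 probes (0.954%). The probes are 60 bases long, so this says only that these letters are not in those windows. No probe was named for miR-181 (0 by name), so the arrays gave no check of the vector.

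Upstream sequences were examined because most of the genes lay on the same side of 0. RefSeq promoters matched 40 of the 49 genes, and the 250 bases before each annotated start were searched on both strands for 7 sets of letters linked to ER stress or to general promoters, chosen with the gene list known. The 40 genes had 42 promoters, and a gene was counted when any of its promoters matched. The background is a share of promoters, so the units differ slightly. The core of the unfolded protein response element, TGACGTGG, occurred upstream of Copb1 and Sec24d (2 of 40 genes, or 5%), against 0.563% of all 32851 promoters of that length. The letters GCCACGT, described for XBP1, occurred upstream of 9 of the 40 genes (22.5%; Mcfd2, Sar1a, Sec24c, Sec24d, Sec63, Spcs1, Srprb, Ssr1 and Ssr3), against 2.02% of all promoters. In Sec24d both overlap. The ER stress response elements I and II, longer letter patterns searched with their spacing, occurred in none of these windows (0 of 40) and in 0.113% and 0.0304% of all promoters. TGACGT occurred in 25% of the genes against 6.47% of all promoters, CCACG, which is contained in several of these, in 52.5% against 28.3%, and CCAAT in 32.5% against 33.8%. The windows of the genes had a median of 57.4% G and C, against 52.4% for all promoters. A match describes the letters and shows no binding.

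The windows of the genes that reached 1.5-fold (Srpr and Srprb) and of those with TGACGTGG (Copb1 and Sec24d) are printed 5′ to 3′ from RefSeq, GRCm38.p6, ending at the base before the annotated start. Capitals mark TGACGTGG and GCCACGT on either strand.
Srpr (chr9:35210953-35211202, + strand): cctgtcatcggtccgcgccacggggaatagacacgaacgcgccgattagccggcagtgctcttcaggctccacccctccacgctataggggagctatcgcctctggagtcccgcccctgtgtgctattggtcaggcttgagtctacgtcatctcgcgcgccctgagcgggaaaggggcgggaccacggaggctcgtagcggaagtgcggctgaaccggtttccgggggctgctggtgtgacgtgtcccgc
Srprb (chr9:103202066-103202315, - strand): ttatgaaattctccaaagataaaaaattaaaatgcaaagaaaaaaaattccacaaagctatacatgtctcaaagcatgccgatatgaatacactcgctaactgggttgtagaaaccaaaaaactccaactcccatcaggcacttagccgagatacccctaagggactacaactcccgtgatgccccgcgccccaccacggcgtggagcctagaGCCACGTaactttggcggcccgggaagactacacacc
Copb1 (chr7:114254681-114254930, - strand): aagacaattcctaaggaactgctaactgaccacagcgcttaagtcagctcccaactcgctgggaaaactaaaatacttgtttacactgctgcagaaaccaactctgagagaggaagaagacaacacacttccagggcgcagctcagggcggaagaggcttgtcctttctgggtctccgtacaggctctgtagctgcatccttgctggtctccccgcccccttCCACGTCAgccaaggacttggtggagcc
Sec24d (chr3:123267246-123267495, + strand): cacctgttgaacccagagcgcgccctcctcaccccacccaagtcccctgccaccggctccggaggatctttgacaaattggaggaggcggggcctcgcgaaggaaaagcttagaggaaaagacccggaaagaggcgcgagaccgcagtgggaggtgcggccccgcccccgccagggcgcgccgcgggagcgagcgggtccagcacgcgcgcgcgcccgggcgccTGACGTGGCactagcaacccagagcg
The Srpr window holds neither set of letters. In Srprb the match lies 37 to 31 bases before the start, in Copb1 28 to 21 bases and in Sec24d from 26 bases before it.

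With loess normalisation this machinery was slightly higher in the miR-181b cells as a group. Of the 43 genes, 24 were higher on both arrays (55.8%, against 24.4% of all measured genes), 3 were lower on both (6.98%, against 27.4%) and 16 had opposite signs. The median log2 ratio was 0.19, 0.10 by array 1 and 0.25 by array 2, against -0.01 for all 17713 genes. By the brightest probe of each gene, only Srpr and Srprb reached 1.5-fold (2 of 43, with 0.813% of all genes 1.5-fold higher). They encode the α and β subunits of the signal recognition particle receptor. In the other direction, 0 of 43 were 1.5-fold lower (0.508% of all genes). No gene of the set reached the stricter rule of a 2-fold mean with 1.5-fold on each array (0 of 43, against 0.00565% of all genes higher and 0.096% lower). Most ratios were small, and 38 of the 43 means were above 0.

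The direction depended on the dye correction when all genes were the reference. Without the loess correction the median of all genes moved to -0.20 and that of the set to -0.22, so that 21 of 43 genes lay above the median of all genes, 6 of 43 lay above 0 and none reached 1.5-fold. The spots of these genes were bright (median log2 intensity 13.2, against 9.40 for all genes). Genes within 1 range of brightness were therefore compared. Among the 21 genes in the middle range of the set's brightness, all 21 lay above the median of the 3313 other genes in that range, with loess (0.17 against -0.01) and without it (-0.23 against -0.39). For these 21 genes the difference from other genes of that range was thus 0.17 and 0.16 under these settings. Within the range the 21 genes were still brighter (median log2 intensity 13.2, against 12.7), so brightness was only roughly matched. The genes with negative means (Sec24b, Sec61a2, Sec61g, Srp14 and Ssr4) all lay outside that range, and the other 22 genes were not compared in this way. This comparison was chosen after the data were seen, and changes below are on the loess scale.

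**Figure D1:**
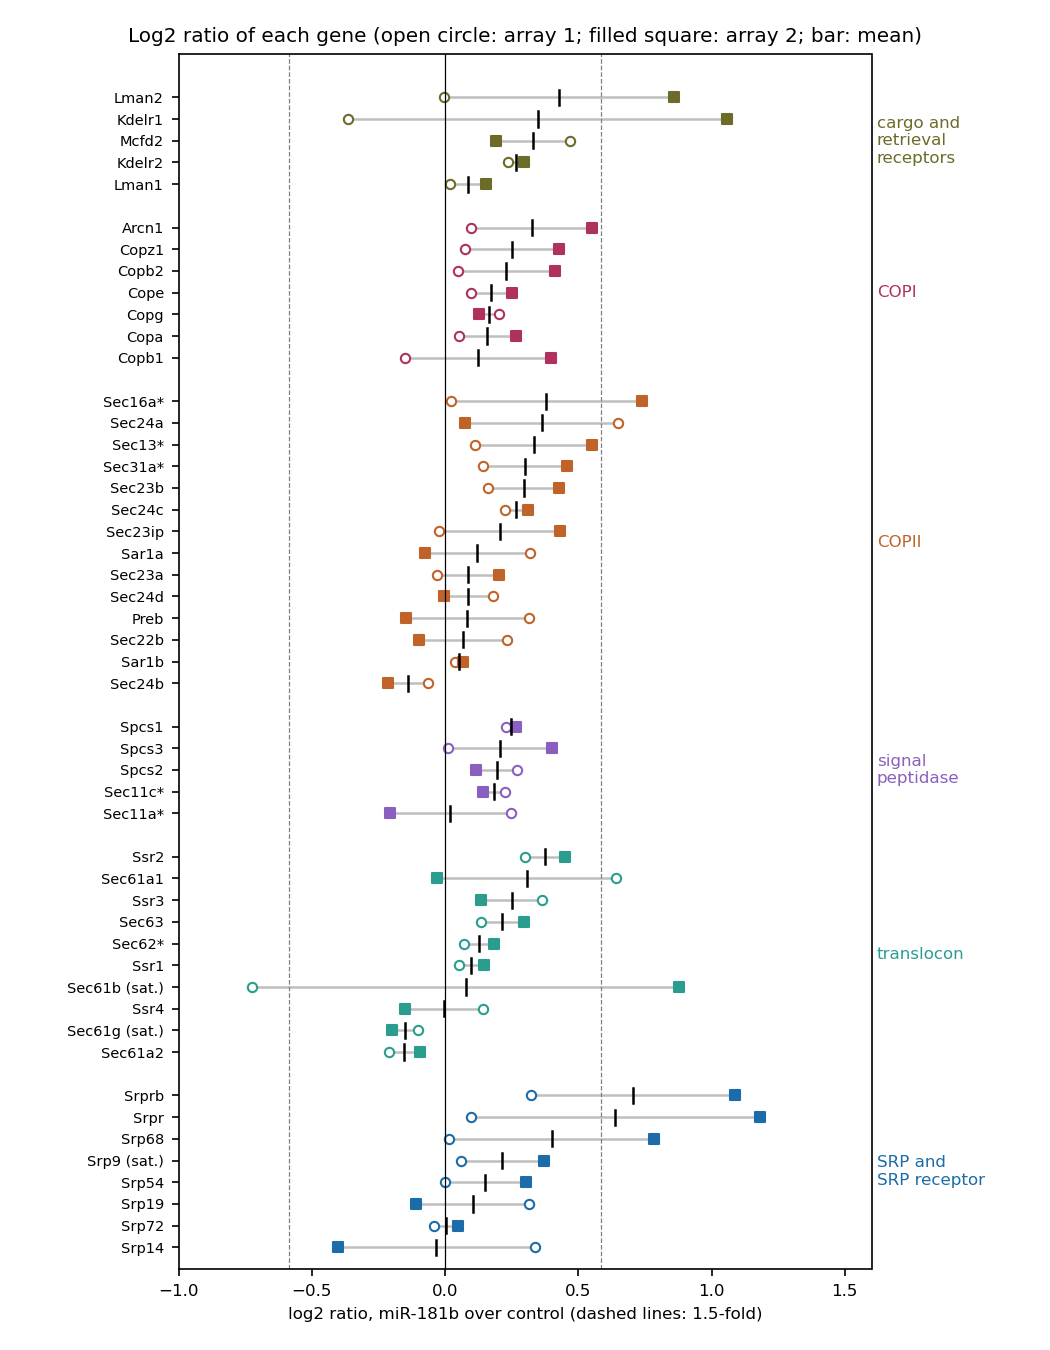
Log2 ratio of miR-181b over control for each gene on array 1 (open circle) and array 2 (filled square), with the mean as a bar, grouped by step of the pathway; asterisks mark the 6 genes found under older names, "sat." a gene with a saturated spot, and dashed lines 1.5-fold. Most bars lie right of 0, which holds with loess (6 of 43 without it), and only those of Srpr and Srprb pass the dashed line.

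The signal recognition particle has 6 protein genes in the set and its receptor 2, and the median of these 8 was 0.18 (0.08 on array 1 and 0.34 on array 2; -0.23 without loess and 0.11 with the mean of all probes). Of the 8, 4 were higher on both arrays, 0 lower and 4 of opposite sign. For Srprb, the membrane-anchored β subunit, the log2 intensity was 10.50 in miR-181b RNA and 10.18 in control RNA on array 1, and 10.76 and 9.68 on array 2. The miR-181b RNA was thus brighter on both arrays, by 0.32 and by 1.09, and the mean was 0.70 ± 0.38 (1.63-fold). Other probes of Srprb gave smaller values, of 0.31 and 0.12, and the mean of all its probes (0.38) did not reach 1.5-fold.

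For Srpr, the α subunit that contacts the particle, the log2 intensity was 12.38 in miR-181b RNA and 12.28 in control RNA on array 1, and 12.66 and 11.48 on array 2. The ratio was therefore 0.10 on array 1 and 1.18 on array 2, with a mean of 0.64 ± 0.54 (1.56-fold), and most of it came from array 2. All 3 of its measured probes were higher, with means between 0.46 and 0.70. Scaling between the arrays lowered Srpr to 0.54, just under 1.5-fold, and left Srprb at 0.64. Without loess the mean of Srpr was 0.28 and that of Srprb 0.40. Srpr then had opposite signs, with -0.045 on array 1 and 0.60 on array 2. Srprb stayed positive on both, with 0.15 and 0.65. On array 1 alone neither gene reached 1.5-fold, and on array 2 alone both did.

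Within the particle, Srp68, which with Srp72 forms a dimer on its RNA, was at 0.02 on array 1 and 0.78 on array 2 (0.40 ± 0.38). Its partner Srp72 was at -0.04 and 0.05, so that the dimer's genes differed on array 2 and not on array 1. Srp9, which pauses translation together with Srp14, was at 0.06 and 0.37 (0.22 ± 0.15), with a saturated spot and another probe at -0.23. Srp14 had opposite signs, with 0.34 on array 1 and -0.40 on array 2. The signal-binding subunit gene Srp54 was at 0.15 ± 0.15 and Srp19, which helps assemble the particle, at 0.10 ± 0.21, each within the spread of the arrays or equal to it.

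**Figure D2:**
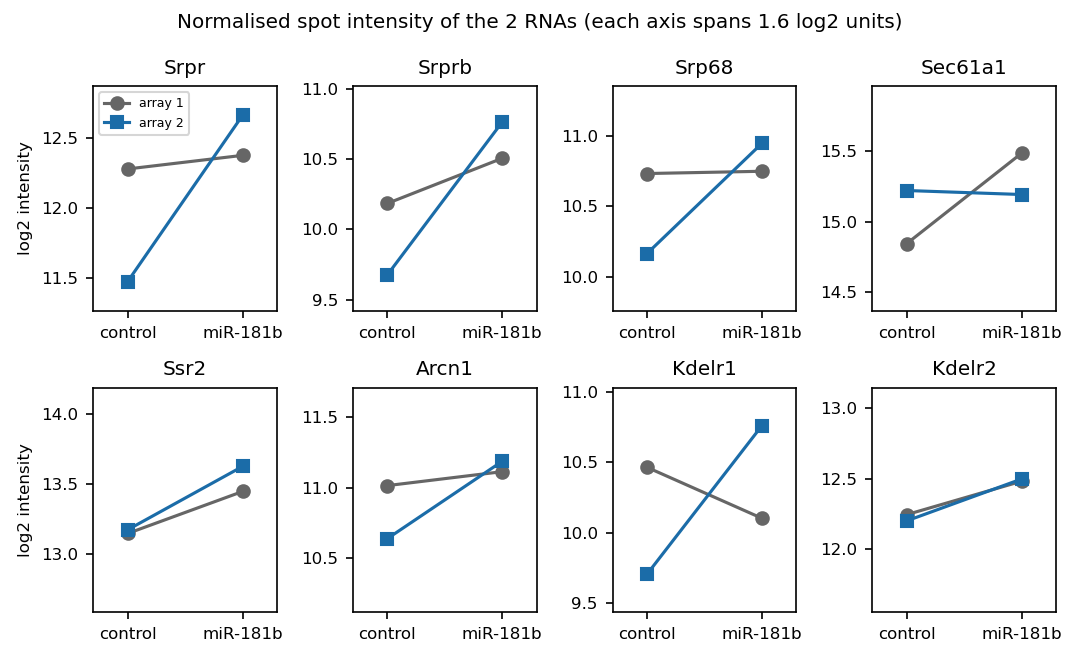
Normalised log2 spot intensity in control and miR-181b RNA on array 1 (grey circles) and array 2 (blue squares) for 8 genes, each on an axis of the same length. Srpr, Srprb and Srp68 climb steeply on array 2 and little on array 1, Kdelr1 falls on array 1, and Ssr2 and Kdelr2 give like slopes on both arrays.

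The 9 translocon genes found by name had a median of 0.10 (array 1 at 0.13, array 2 at 0.14; -0.29 without loess), with 4 higher on both arrays, 2 lower and 3 of opposite sign. Sec61a1, the channel-forming subunit, was at 0.64 on array 1 and -0.03 on array 2 (0.31 ± 0.34). Its other probes gave 0.19 and 0.72 and were positive on both arrays, so the sign on array 2 hung on the probe. The probe at 0.72 passed the 1.5-fold rule but was not the brightest, so Sec61a1 was not counted. The paralogue Sec61a2 was lower on both arrays, at -0.21 and -0.10 (-0.15 ± 0.06), opposite in sign to the mean of Sec61a1. Sec61b, a small channel subunit, was at -0.72 on array 1 and 0.88 on array 2, and it had a saturated spot. On both arrays its Cy3 signal was the brighter, whichever RNA carried that dye. The γ subunit gene Sec61g also had a saturated spot and lay at -0.15 ± 0.05. Without these saturated genes the translocon median was 0.22.

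The translocon-associated protein complex, which aids entry of some signal sequences, was mostly higher. Ssr2 was the most even of the larger values, with 0.30 on array 1 and 0.45 on array 2 (0.37 ± 0.08, from 1 probe). Ssr3 was at 0.36 and 0.14 (0.25 ± 0.11), Ssr1 at 0.10 ± 0.05 with other probes between -0.20 and 0.34, and Ssr4 was positive on array 1 (0.14) and negative on array 2 (-0.15). Sec63, a membrane co-chaperone that works with the channel, was at 0.13 and 0.30 (0.22 ± 0.08), but the means of its other 3 probes were negative, down to -0.11. Its partner Sec62, found under the older name Tloc1, was at 0.13 ± 0.06, but another probe was negative on both arrays (-0.10 and -0.04).

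The 3 signal peptidase genes found by name all lay above 0 by each array, and their median was 0.21 (array 1 at 0.23, array 2 at 0.27; -0.20 without loess). The accessory subunit gene Spcs1 was at 0.23 and 0.27 (0.25 ± 0.02), so the arrays hardly differed. Spcs2 was at 0.27 and 0.12 (0.19 ± 0.08). Spcs3, a subunit needed for cleavage, was at 0.01 and 0.40 (0.21 ± 0.19). The catalytic subunits were found under older names. Sec11c (Sec11l3) was at 0.23 and 0.14 (0.18 ± 0.04), while its paralogue Sec11a (Sec11l1) had opposite signs, with 0.25 and -0.21. The difference between these paralogues lay on array 2 and was not larger than the spread of Sec11a between arrays.

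**Figure D3:**
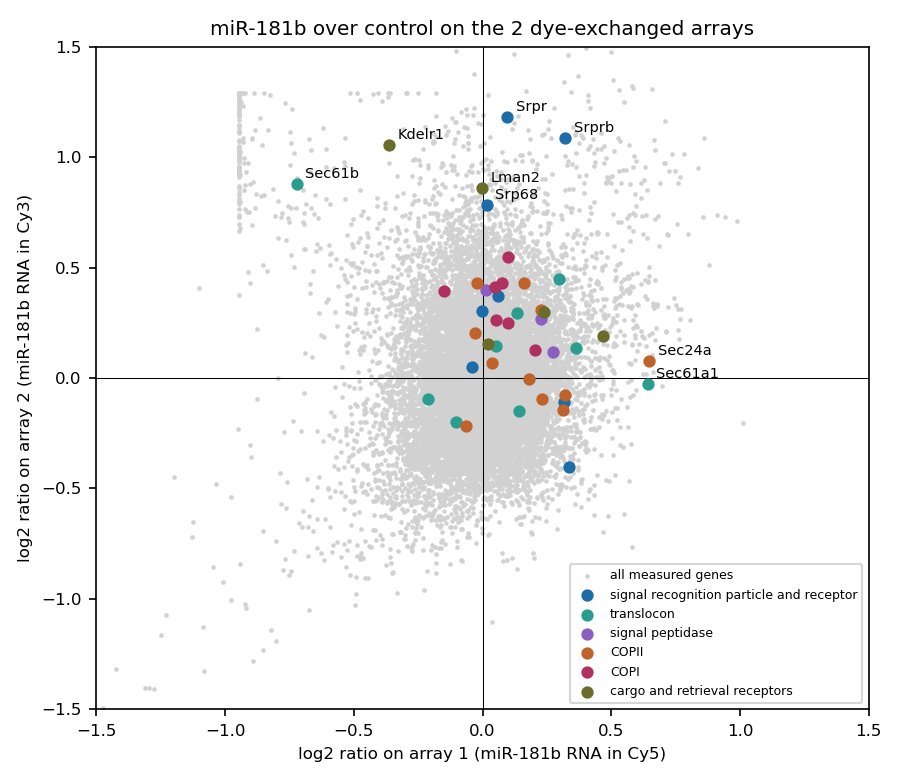
Log2 ratio of miR-181b over control on array 1 (x axis) against array 2 (y axis) for all measured genes (grey) and the 43 genes (coloured by step); 13 grey genes beyond ±1.5 lie outside the axes. The 24 genes in the upper right quadrant are higher on both arrays (1 without loess, where the share of all genes was not counted). Sec61b and Kdelr1 lie in the upper left.

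The 11 found by name had a median of 0.09 (array 1 at 0.18, array 2 at 0.07; -0.25 without loess), with 4 higher on both arrays, 1 lower and 6 of opposite sign. The GTPase genes that start coat assembly showed small ratios, with Sar1a at 0.32 on array 1 and -0.08 on array 2 and Sar1b at 0.04 and 0.07. Preb, which encodes the exchange factor Sec12 that loads this GTPase, was at 0.31 and -0.15. Second probes of Sar1a (0.16 and 0.24) and of Preb (0.22 and 0.51) were positive on both arrays, so the sign on array 2 differed between probes of these genes.

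Of the inner coat, Sec23b was at 0.16 on array 1 and 0.43 on array 2 (0.30 ± 0.13), and its paralogue Sec23a at -0.03 and 0.20 (0.09 ± 0.12). With loess both arrays thus placed Sec23b above Sec23a, but without it array 2 turned the order (-0.16 for Sec23b and -0.11 for Sec23a). The Sec24 genes, whose products select cargo, differed in sign. Sec24a was at 0.65 and 0.08 (0.36 ± 0.29, with other probes at 0.07 and 0.32) and Sec24c at 0.23 and 0.31 (0.27 ± 0.04). Sec24d was at 0.18 and -0.01 (0.09 ± 0.09). Sec24b was lower on both arrays, at -0.06 and -0.22 (-0.14 ± 0.08), and its other probe was at -0.27. On both arrays Sec24b therefore lay below Sec24a, Sec24c and Sec24d.

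The 3 COPII genes found under older names were all higher on both arrays, though less so on array 1. The scaffold gene Sec16a (AU024582) was at 0.02 and 0.74 (0.38 ± 0.36), and the outer coat genes Sec13 (Sec13l1) at 0.11 and 0.55 (0.33 ± 0.22) and Sec31a (Sec31l1) at 0.14 and 0.46 (0.30 ± 0.16). Further probes of Sec16a and Sec13 gave 0.11 and 0.04. With these genes the COPII median became 0.16. Of the remaining COPII genes, Sec23ip, which binds the inner coat, was at 0.21 ± 0.23 and the SNARE gene Sec22b at 0.07 ± 0.16.

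COPI was the most uniform coat. All 7 of its genes had positive means, between 0.12 and 0.32, and 6 were higher on both arrays (median 0.17, with 0.08 on array 1 and 0.40 on array 2; -0.23 without loess). Arcn1, the δ subunit, was at 0.10 on array 1 and 0.55 on array 2 (0.32 ± 0.23), but its 5 probes ranged from -0.22 to 0.32. The ζ subunit gene Copz1 was at 0.08 and 0.43 (0.25 ± 0.18). Copb2, a β′ subunit, was at 0.05 and 0.41 (0.23 ± 0.18), and Copb1, the β subunit, had the only split sign, with -0.15 and 0.40. The ratios of these genes were larger on array 2, and Copg (0.20 and 0.13) was the exception. Cope was at 0.17 ± 0.08 and Copa at 0.16 ± 0.11.

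The cargo and retrieval receptors had a median of 0.33 for the mean of both arrays, but of 0.02 on array 1 and 0.30 on array 2, and of -0.05 without loess. All 5 had positive means and 3 were higher on both arrays. Mcfd2 and Lman1 encode partners that carry certain glycoproteins out of the ER. Mcfd2 was at 0.47 and 0.19 (0.33 ± 0.14) and Lman1 at 0.02 and 0.15 (0.09 ± 0.07). The lectin gene Lman2 was at 0.00 on array 1 and 0.86 on array 2, so its mean of 0.43 came from array 2 alone.

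The KDEL receptors return chaperones that have left the ER, and Kdelr1 differed between the arrays where Kdelr2 did not. For Kdelr2 the log2 intensity was 12.48 in miR-181b RNA and 12.24 in control RNA on array 1, and 12.50 and 12.20 on array 2, which gave 0.27 ± 0.03. For Kdelr1 it was 10.10 and 10.46 on array 1 but 10.76 and 9.70 on array 2, which gave -0.36 and 1.06. Kdelr1 and Sec61b were the genes of the set whose contrast between dyes exceeded 1.5-fold (2 of 43, against 1.5% of all genes), and Kdelr1 was not saturated. The mean of Kdelr1, 0.35 ± 0.71, thus had no settled sign.

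**Figure D4:**
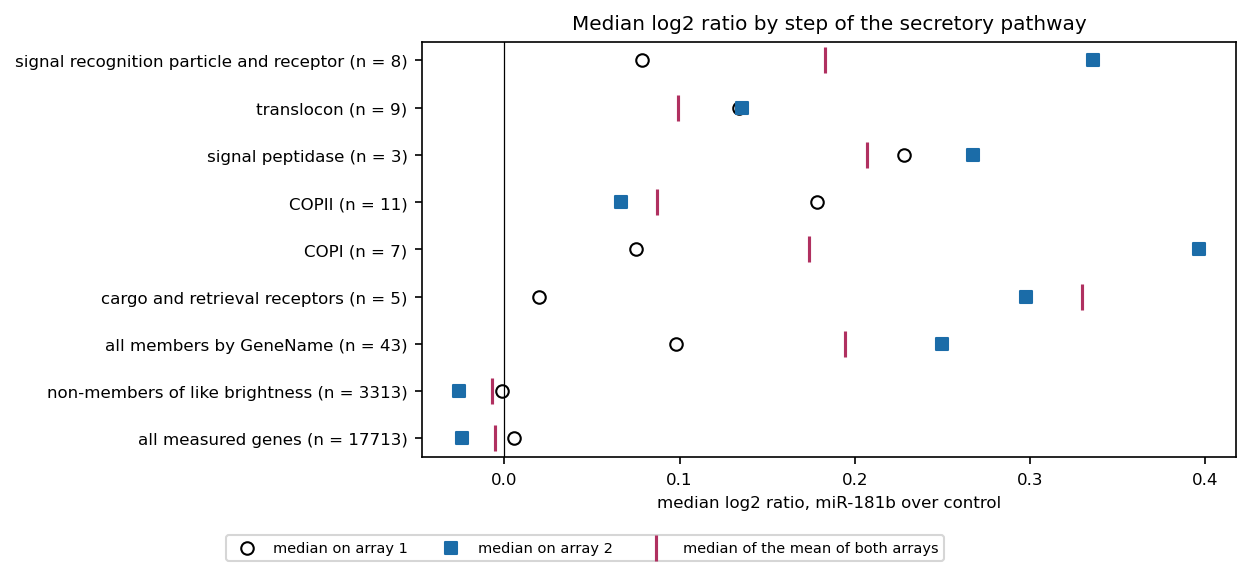
Median log2 ratio of miR-181b over control by step of the pathway, on array 1 (open circle), array 2 (blue square) and for the mean of both arrays (red bar). Below are non-members in the middle range of the set's brightness (labelled as of like brightness) and all measured genes. With loess, as drawn, all 6 steps lie right of 0 on both arrays, between 0.02 and 0.40 (without it the medians of the mean of both arrays are all below 0), while the reference genes lie at or near 0.

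Other genes of the secretory pathway were read from lists of known members by the same rules, with the percentages of all genes above as background. Of 14 measured genes for oligosaccharyltransferase and translocon partners, 8 were higher and 0 lower on both arrays (median 0.17). Ddost, a transferase subunit gene, was at 0.60 ± 0.42 and reached 1.5-fold, and Tram1, which lies beside the channel, was at 0.52 ± 0.27 and Hyou1, an ER chaperone, at 0.43 ± 0.08. Other probes gave means down to 0.23 for Tram1 and 0.09 for Hyou1. The p24 and ERGIC cargo proteins (21 measured) had a median of 0.03, with 10 higher on both arrays (47.6%) and 3 lower (14.3%). In that list Tmed6 was at 0.49 ± 0.06, Ergic3 at 0.43 ± 0.34 and Tmed2 at 0.37 ± 0.21.

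The Arf GTPases and other coat subunits (15 measured) had a median of 0.15 (array 1 at -0.01, array 2 at 0.34), with Arf6 at 0.37 ± 0.35, Arfgap1 at 0.34 ± 0.28 and the GTPase gene Arf4 at 0.24 ± 0.18. The lowest of the 3 Arfgap1 probes was at -0.03. Tethers and SNAREs of the ER-Golgi step (24 measured) had a median of 0.03, with 8 higher and 5 lower on both arrays. Among them the SNARE gene Stx5a was at 0.49 ± 0.42, Gorasp2, a Golgi stacking factor, at 0.32 ± 0.08 and the tether subunit gene Trappc6a at -0.39 ± 0.15. The probes of Gorasp2 ranged from 0.03 to 0.42. All 27 measured ER chaperone and unfolded protein response genes had positive means, with a median of 0.31, and both arrays placed 17 above 0 and none below (0 of 27). Of these 27, 6 reached 1.5-fold, with Xbp1 at 0.99 ± 0.49, Edem2, which helps degrade misfolded glycoproteins, at 0.74 ± 0.57 and the disulfide isomerase gene Pdia4 at 0.73 ± 0.31. With loess, the median of the transport and translocation genes (0.19) was smaller than that of this list. The list's spots were also bright (median log2 intensity 13.9), and 5 of the 27 genes had a saturated spot. Whether the values of this list, of the other pathway lists and of the markers below hold without loess was not tested.

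Markers of secreting cells lay on the same side of 0 as the set, and so did B cell markers by the mean of both arrays. Xbp1 is in the plasma cell list and also in the unfolded protein response list above. All 7 plasma cell markers were measured, both arrays placed 5 above 0 and 0 below it, and the list's median was 0.36, from 0.18 on array 1 and 0.40 on array 2. Their summed log2 intensity was 16.63 in miR-181b RNA and 16.66 in control RNA on array 1, and 17.33 and 16.15 on array 2. The 10 B cell markers were all measured in these cells labelled as B cells, and 8 of 10 had opposite signs (median -0.30 on array 1 and 0.70 on array 2, with 4 saturated). For the mean of both arrays the B cell median was 0.18, with 9 of 10 means above 0. Of the T cell markers 10 of 11 were measured, with a median of 0.00, and 5 of 9 macrophage and monocyte markers with 0.06. Natural killer (3 of 6 measured), granulocyte and mast cell (3 of 7) and erythroid and megakaryocyte markers (2 of 6) had medians of 0.12, -0.10 and 0.05. Their summed log2 intensities were between 8.95 and 13.7 for all lists other than B and plasma cells, and the defining genes Ncr1 and Cpa3 were not well above background. The part of any of these cells in the result was not tested, and in such bulk RNA fewer cells of a type and less RNA per cell cannot be told apart.

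Each channel had 64.7% to 67.7% of its spots clear of background, and the number of arrays limits the precision. Of the 43 genes 3 had a saturated spot (Srp9, Sec61b and Sec61g), and the median without them was 0.20. The 440 measured genes with a saturated spot had medians of -0.49 on array 1 and 0.70 on array 2, so the Cy3 side was the brighter on both.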

How the data were processed

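RNA of 1 culture per vector was hybridised on 2 dye-exchanged arrays. The arrays were read with Agilent's scanner software, Feature Extraction 9.1.3.1, per the file headers. The deposited intensities are mean spot signals and median local backgrounds in Cy3 and Cy5, with no correction. The authors' scanner also gave a log10 ratio (Cy5 over Cy3) from signals that were background-subtracted and lowess-normalised, per the file headers. The deposited value table was not used, since its row identifiers matched no probe column.

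limma 3.58.1 (R 4.3.3) gave the ratios: normexp background with an offset of 50, loess within each array with controls at weight 0, array 2 turned. Outlier spots (7 and 21) were left out, saturated ones kept. Replicate spots were averaged, and a gene took its brightest measured probe. RefSeq (GRCm38.p6) gave current names: 22951 probes matched by accession, 6659 by symbol, 3109 by synonym, and 8455 kept the file's name. The authors' genome build is not given in the sources used here. Only the normalisation was run on simulated dye-exchanged arrays, with known changes placed at random whatever the brightness. That run did not cover probe choice, the background filter or the fold rule. It cannot decide how a bright set depends on loess. Array values were named for the largest means of even sign per step (up to 4, and up to 3 per other list), the gene whose arrays differed most and paralogue sets, and others were added after their values were seen. The members and lists were chosen with earlier results of these data known. Alternatives are given in the closing section.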

Additional observations from a re-analysis of the deposited data

How the results depend on the processing

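With median centring and no loess, 0 genes of the set were 1.5-fold higher, 1 was higher and 16 lower on both arrays, and the medians turned to -0.23 (signal recognition particle and receptor), -0.29 (translocon), -0.20 (signal peptidase), -0.25 (COPII), -0.23 (COPI), -0.051 (cargo and retrieval receptors) and -0.22 (all), against -0.20 for all genes. The shares of all genes higher or lower on both arrays without loess were not counted, so these counts have no background. For the 21 of 43 genes in the middle brightness range, a comparison chosen after seeing the data, the median was then 0.16 above that of other genes in the range. By the 2-fold rule, 0 were higher. The count of 2 genes at 1.5-fold fell to 1 with scaling between arrays (Srprb kept) and to 1 with the mean of all probes (Srpr kept). The translocon median was 0.094 with the scanner's log ratio, 0.091 with scaling between arrays, 0.078 with the mean of all probes, 0.22 without saturated genes and 0.11 with current gene symbols, where the spread between arrays was very small. With each array alone, 2 to 6 genes were 1.5-fold higher (Sec24a and Sec61a1 on array 1; Kdelr1, Lman2, Sec61b, Srp68, Srpr and Srprb on array 2), 0 to 1 lower, 32 positive and 11 negative. Of all 17713 genes, 9109 were positive on array 1 and 8066 on array 2. The shares of all genes at 1.5-fold on 1 array alone were not counted. By each array alone, the medians of the set ranged from 0.134 to 0.136 (translocon), 0.23 to 0.27 (signal peptidase), 0.067 to 0.18 (COPII), 0.020 to 0.30 (cargo and retrieval receptors), 0.08 to 0.34 (signal recognition particle and receptor), 0.08 to 0.40 (COPI) and 0.10 to 0.25 (all). The COPII median was 0.14 with scaling between arrays and 0.16 with the mean of all probes and with current gene symbols. Other medians kept their sign under the alternatives with loess or the scanner's normalisation. Of 30 named genes, 23 changed sign without loess, and 2 of 208 values did so under the 7 other alternatives with both arrays. Many of the 208 values were fixed. Each named gene kept exactly its main value without the background filter, with current gene symbols and, if not left out, without saturated genes. Those alternatives therefore could not test the sign of a named gene, and the 208 overstate how many values could change. The causes of the sign changes were not tested. The alternative with the deposited table was not run, since its rows could not be named. With 1 RNA pair the arrays show technical spread only.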

Other observations

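Several genes of the set carried probes that differed in sign. Of the 5 Arcn1 probes, 4 matched the RefSeq transcript and lay between -0.01 and 0.32, while the probe of a cDNA clone lay at -0.22 and was negative on both arrays (-0.15 and -0.28). Of the 3 Ssr1 probes, those of the RefSeq transcript were at 0.10 and 0.34 and the probe of a cDNA clone at -0.20. Sec63 gave 0.22 with its RefSeq probe and between -0.11 and -0.07 with the 3 probes of other cDNAs. Srp9 gave 0.22 and 0.15 with RefSeq probes and -0.23 with a cDNA probe. In Copg, by contrast, probes of RefSeq transcripts themselves spread from -0.03 to 0.32, and those of Sec62 lay at -0.07 and 0.13. Preb's cDNA probe (0.37) lay above its RefSeq probe (0.08). This pattern was noticed in the values and was not tested.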
